A study of Drosophila melanogaster with 9 samples.

Results

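The genes described here handle copper, zinc and iron in the fly gut. They are the metallothionein genes MtnA, MtnB, MtnC, MtnD and MtnE, the metal-responsive transcription factor gene MTF-1, the copper importer gene Ctr1B, and the ferritin subunit genes Fer1HCH and Fer2LCH. They were chosen by FlyBase symbol, all 9 were found among the 15682 gene identifiers of the count tables, and all 9 had enough counts to be tested. RNA was sequenced from dissected midguts of virgin Drosophila melanogaster females in 9 libraries, each a pool of 30 midguts. The rescue group (3 libraries) was tra mutant females with the female form of transformer (tra) expressed under esg, a gene active in intestinal stem cells and their immediate daughters. The tra mutant group (3 libraries) is labelled with no transgene, and the control group (3 libraries) was labelled wild type. All groups share a w1118 background, an age labelled as 15 days, and 3 days at 18 °C followed by 10 days at 29 °C, the shift that switched on the transgene. The labels do not give the tra alleles, nor whether mutant and control flies carried the driver, and they do not tell how replicates were kept separate, so the p-values reflect only how these libraries vary. Mutant and rescue flies share the tra mutation and control flies lack it. In comparisons with control, its effect and that of any variant carried with it cannot be told apart.

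Metallothioneins are small, cysteine-rich proteins that bind copper, zinc and cadmium and keep these metals from harming the cell. MTF-1 switches their genes on when metal is plentiful, through metal response elements in their promoters, and in flies it also switches on Ctr1B when copper is scarce. Ferritin stores iron. Insect ferritin is built in the secretory pathway from heavy and light chains, and in the fly midgut it marks a region of iron-storing cells that lies behind the acid-secreting copper cells.

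Levels are in CPM, counts per 1000000 gene counts of a library after TMM scaling, and group values are mean ± SD over n = 3 libraries. Each log2 fold change comes with its SE, and adjusted p is from edgeR's quasi-likelihood test, with Benjamini-Hochberg adjustment over the 10088 tested genes. tra itself had 756, 472 and 294 counts in rescue, 1, 2 and 1 in the mutant and 821, 650 and 742 in control, as the labels state. The libraries held 84839470 to 108455374 gene counts, and the lowest count of any of the 9 genes in a library was 1407 (MtnE, rescue replicate 3), so spread between libraries and not counting error limited the comparisons. Control replicate 3 stood apart on the first principal component (-64.2, against -34.6 and -34.5 for the other control libraries and 18.8 to 27.0 for rescue and mutant libraries). Of 7 markers of the copper cell region of the midgut, lab measured 15.1 to 25.1 CPM and Vha100-4 272 to 393 CPM over the 9 libraries. Against control, the mutant had negative log2 fold changes for lab (-0.28), Vha100-4 (-0.12) and Ptx1 (-0.11). It had positive ones for caup (0.47), Vha100-2 (0.45), CAH1 (0.33) and dve (0.23). None of the 7 had an edgeR adjusted p under 0.05 there.

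The copper importer gene changed most firmly. Ctr1B (FBgn0062412, chromosome arm 3R), which encodes a high-affinity copper transporter of the gut, measured 196, 172 and 181 CPM in rescue, 220, 237 and 194 CPM in the mutant, and 69.7, 69.2 and 42.3 CPM in control. Every rescue and mutant library lay above every control library, while rescue and mutant libraries overlapped. Ctr1B averaged 217 ± 21.7 CPM in the mutant and 60.4 ± 15.7 CPM in control, a ratio of means of 3.59 (log2 fold change 1.84 ± 0.19, edgeR adjusted p = 0.000749). In rescue it averaged 183 ± 12.3 CPM, 3.03 times the control mean (1.60 ± 0.19, edgeR adjusted p = 0.00137). Rescue against mutant measured -0.24 ± 0.19 (95% interval -0.66 to 0.18, edgeR adjusted p = 0.999), so a return of Ctr1B towards the control level in rescue by more than 0.66 on the log2 scale lies outside the interval. In a bulk tissue, more cells that express a gene and more RNA per cell cannot be told apart.

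**Figure D1:**
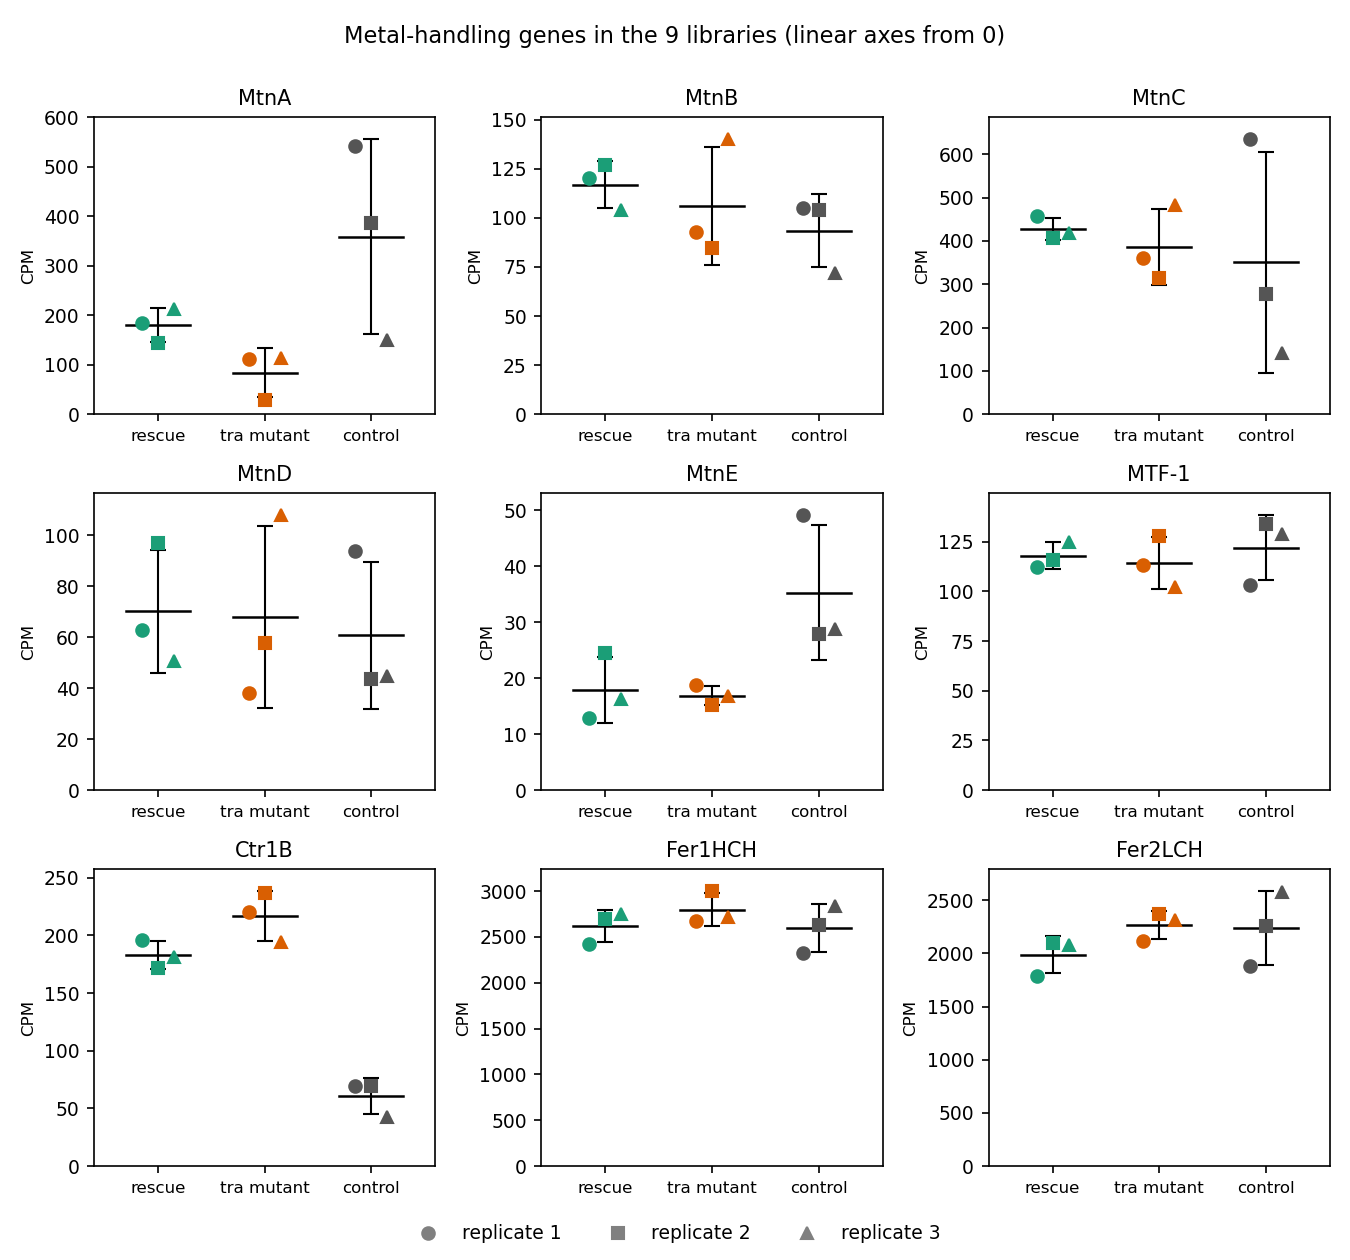
CPM of each of the 9 genes (linear vertical axes from 0) in rescue, tra mutant and control libraries; points are single libraries with a marker per replicate, horizontal lines are group means and bars are SD (n = 3). Ctr1B lies at 172 to 237 CPM in all rescue and mutant libraries and at 42.3 to 69.7 CPM in control, MtnA and MtnE are lower in all mutant than in all control libraries, and the ferritin genes overlap between mutant and control.

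The Ctr1B difference held its side of the threshold under all 18 alternatives in both comparisons with control, with log2 fold changes of 1.65 to 1.96 for the mutant and 1.42 to 1.71 for rescue. Without control replicate 3, which had the lowest Ctr1B level, they were 1.65 and 1.42. In the BDGP6 annotation, which is not the build of the counts, Ctr1B shares 19% of its exon bases with Poxm on the other strand, and since the strand setting of the counting is not known here, reads of this stretch cannot be assigned with certainty. Ctr1B also shares 19.4% with lncRNA:CR45215 on the same strand, a gene that was not counted. Reads of that gene in the shared stretch cannot be told from Ctr1B reads. Poxm, a paired-box transcription factor gene, had 672, 405 and 343 counts in rescue, 265, 531 and 411 in the mutant and 213, 176 and 81 in control, against 4742 to 22846 for Ctr1B. Poxm measured 1.60 ± 0.40 for rescue against control (edgeR adjusted p = 0.0372) and 1.35 ± 0.40 for mutant against control (edgeR adjusted p = 0.0767).

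The metallothionein genes did not move together. Of the 5, MtnE fell in the mutant and in rescue relative to control, MtnA was low in the mutant without passing the threshold, and MtnB, MtnC and MtnD did not pass in any comparison. All 5 lie on chromosome arm 3R, where MtnD and MtnE are immediate neighbours on opposite strands. None of the 5 shares exon bases with another annotated gene. MtnF, placed on the copper list and not among these 5, had 0 to 14 counts per library and was not tested.

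Of the metallothionein genes other than MtnF, MtnE (FBgn0262146) had the lowest level. It measured 12.9, 24.4 and 16.3 CPM in rescue, 18.7, 15.2 and 16.8 CPM in the mutant, and 49.1, 27.8 and 28.8 CPM in control. All rescue and mutant libraries were below all control libraries, and control replicate 1 was the highest of the 9. The mean was 17.9 ± 5.88 CPM in rescue, 16.9 ± 1.77 CPM in the mutant and 35.2 ± 12.0 CPM in control. The log2 fold change against control was -1.06 ± 0.27 in the mutant (edgeR adjusted p = 0.0457) and -0.98 ± 0.27 in rescue (edgeR adjusted p = 0.0485). Both calls lie close to the threshold. The mutant call was lost under 6 of 18 alternatives: with the replicate number as a block on all 9 libraries (edgeR adjusted p = 0.0643, though 0.0322 with the block on the 6 compared) and without control replicate 1 (-0.75, edgeR adjusted p = 0.0853), mutant replicate 1, 2 or 3 (0.108, 0.137 and 0.129) or rescue replicate 3 (0.066). The rescue call was lost under 10 of 18, among them the block (0.0751 and 0.154) and leaving out control replicate 1 (-0.67, edgeR adjusted p = 0.102), any 1 mutant library (0.0665 to 0.0802) or rescue replicate 1 or 3 (0.153 and 0.147). The direction was the same in all 18 for both.

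MtnA (FBgn0002868), which in fly genetics gives the strongest protection against copper, varied most between libraries. It measured 184, 144 and 213 CPM in rescue, 111, 28.0 and 114 CPM in the mutant, and 542, 386 and 151 CPM in control. Every mutant library lay below every rescue and every control library, and rescue overlapped control only through control replicate 3. The mean was 84.3 ± 48.8 CPM in the mutant, 0.235 of the control mean of 359 ± 197 CPM (-2.09 ± 0.55, 95% interval -3.33 to -0.85), which missed the threshold (edgeR adjusted p = 0.0536, 0.000365 to 0.138 over the alternatives). It passed without control replicate 3 (-2.45, edgeR adjusted p = 0.0186), with library totals alone (0.0439), with no filter (0.0394) and with DESeq2 (0.000365). Rescue averaged 181 ± 34.7 CPM, 2.14 times the mutant mean (1.10 ± 0.54, edgeR adjusted p = 0.999) and 0.502 of the control mean (-0.99 ± 0.54, edgeR adjusted p = 0.267), and neither comparison passed.

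MtnC (FBgn0038790) was the metallothionein gene with the most counts in rescue and the mutant. It measured 457, 408 and 419 CPM in rescue, 360, 314 and 484 CPM in the mutant, and 635, 277 and 141 CPM in control. The control libraries alone spanned a wider range than all rescue and mutant libraries. The log2 fold change was 0.14 ± 0.43 for mutant against control (95% interval -0.83 to 1.10, edgeR adjusted p = 0.876), and its sign changed in 3 of 18 alternatives. It was 0.88 without control replicate 1 and -0.22 without control replicate 3.

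MtnB (FBgn0002869), which in fly genetics acts mainly against cadmium, measured 120, 127 and 104 CPM in rescue, 92.7, 84.8 and 140 CPM in the mutant, and 105, 104 and 71.8 CPM in control. MtnD (FBgn0053192) measured 62.7, 97.2 and 50.7 CPM in rescue, 38.3, 57.8 and 108 CPM in the mutant, and 93.8, 43.7 and 44.7 CPM in control. The groups overlapped for both genes. Mutant against control was 0.18 ± 0.21 for MtnB (95% interval -0.29 to 0.66) and 0.16 ± 0.42 for MtnD (-0.78 to 1.10), so a 2-fold rise of MtnD lies within its interval. Rescue against control was 0.32 for MtnB, 0.29 for MtnC and 0.21 for MtnD (edgeR adjusted p = 0.365, 0.708 and 0.785). Single libraries decided the values of MtnC and MtnD. Without control replicate 1, rescue against control was 1.03 for MtnC (edgeR adjusted p = 0.0593) and 0.67 for MtnD (edgeR adjusted p = 0.315). Without control replicate 3 MtnC was -0.07, and without rescue replicate 2 MtnD was -0.07.

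**Figure D2:**
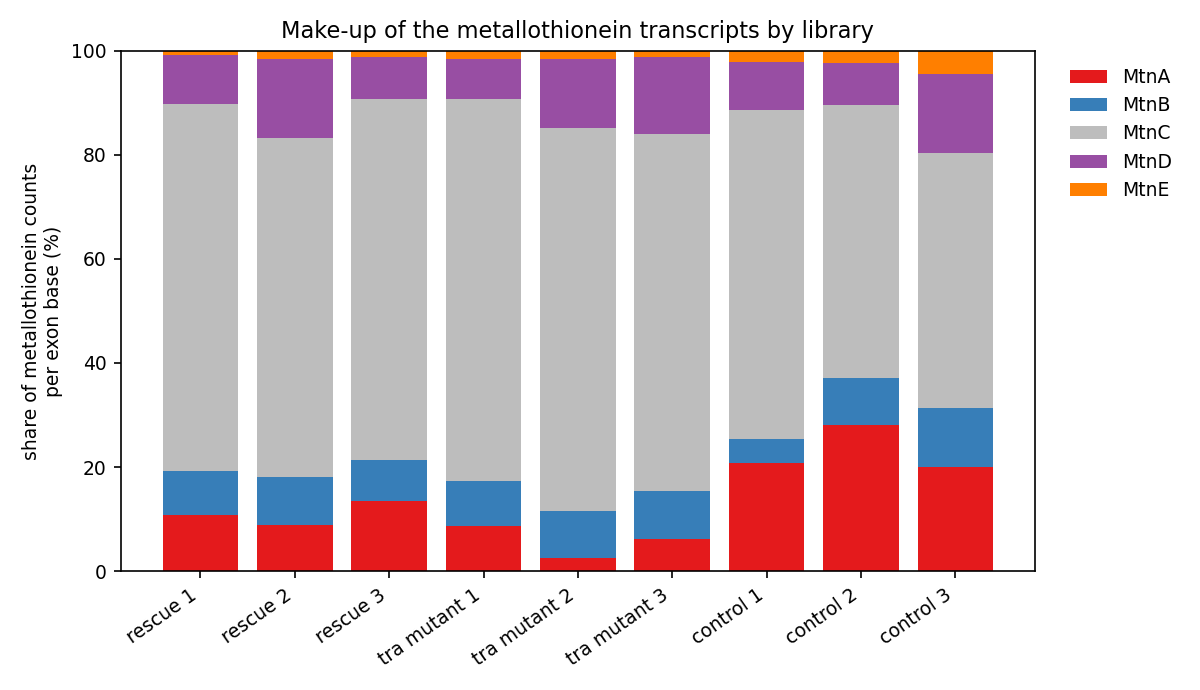
Share (%) of each metallothionein gene in the summed metallothionein counts per exon base, for each of the 9 libraries (stacked bars, from 0 to 100%). MtnC is the largest share per exon base in all 9 libraries, and MtnA takes 8.80% to 13.5% in rescue, 2.51% to 8.63% in the mutant and 20.0% to 28.0% in control.

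The make-up of the metallothionein transcripts was also compared by library, after division by exon length. The summed level of the 5 genes was 838, 800 and 803 CPM in rescue, 620, 500 and 862 CPM in the mutant, and 1420, 838 and 437 CPM in control, so the groups overlapped. Per exon base, MtnA made up 10.8%, 8.80% and 13.5% of the metallothionein signal in rescue, 8.63%, 2.51% and 6.21% in the mutant, and 20.7%, 28.0% and 20.0% in control. The MtnA share was smaller in all mutant libraries than in all rescue libraries, and smaller in all rescue libraries than in all control libraries. MtnC made up 70.4%, 65.1% and 69.3% in rescue, 73.4%, 73.5% and 68.6% in the mutant, and 63.2%, 52.5% and 49.0% in control, with all control libraries the lowest. Before division by exon length, MtnA made up 38%, 46% and 34.5% of the metallothionein counts in control, and MtnC 44.6%, 33.1% and 32.3%. The leading gene in control replicates 2 and 3 thus depends on the division by length. The shares sum to 100% and so are not independent of each other, and no test was run on them.

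In order of level per kilobase of exon in control, the metallothionein genes were MtnC at 1309 ± 951, MtnA at 513 ± 281, MtnD at 222 ± 105, MtnB at 160 ± 32.0 and MtnE at 58.4 ± 19.9 CPM per kilobase. Between libraries the ranges of neighbours from MtnC to MtnB overlapped, while within each control library MtnC was above MtnA and MtnA above both MtnD and MtnB. MtnD and MtnB changed places between control libraries. In the mutant MtnC, at 1440 ± 327 CPM per kilobase, was followed by MtnD at 248 ± 130, MtnB at 181 ± 51.3, MtnA at 120 ± 69.7 and MtnE at 28.0 ± 2.93 CPM per kilobase. In rescue the order was MtnC at 1598 ± 96.9, MtnA at 258 ± 49.6, MtnD at 256 ± 88.2, MtnB at 200 ± 20.3 and MtnE at 29.6 ± 9.74 CPM per kilobase. MtnC and MtnE thus stood at the 2 ends of the order in all 3 groups, and the ranges of MtnA, MtnB and MtnD overlapped in the mutant and in rescue. Exon lengths, 268 bases for MtnC and 274 for MtnD against 584 to 700 for the others, came from BDGP6.

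MTF-1 (FBgn0040305, arm 3L), the factor that acts on the metallothionein genes and on Ctr1B, did not pass in any comparison. It measured 112, 116 and 125 CPM in rescue, 113, 128 and 102 CPM in the mutant, and 103, 134 and 129 CPM in control. The groups overlapped, and the log2 fold change was -0.09 ± 0.14 for mutant against control (95% interval -0.40 to 0.21, edgeR adjusted p = 0.714) and -0.05 ± 0.14 for rescue against control (-0.35 to 0.26, edgeR adjusted p = 0.856). These values are mRNA levels, and the activity of the protein was not measured. MTF-1 shares 14% of its exon bases with Bet3 and 5.45% with CG42526 on the other strand, which had at most 2148 and 577 counts in a library against at least 9691 for MTF-1. On the same strand, 10.1% of the MTF-1 exon bases are shared with asRNA:CR45872, which was not counted.

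**Figure D3:**
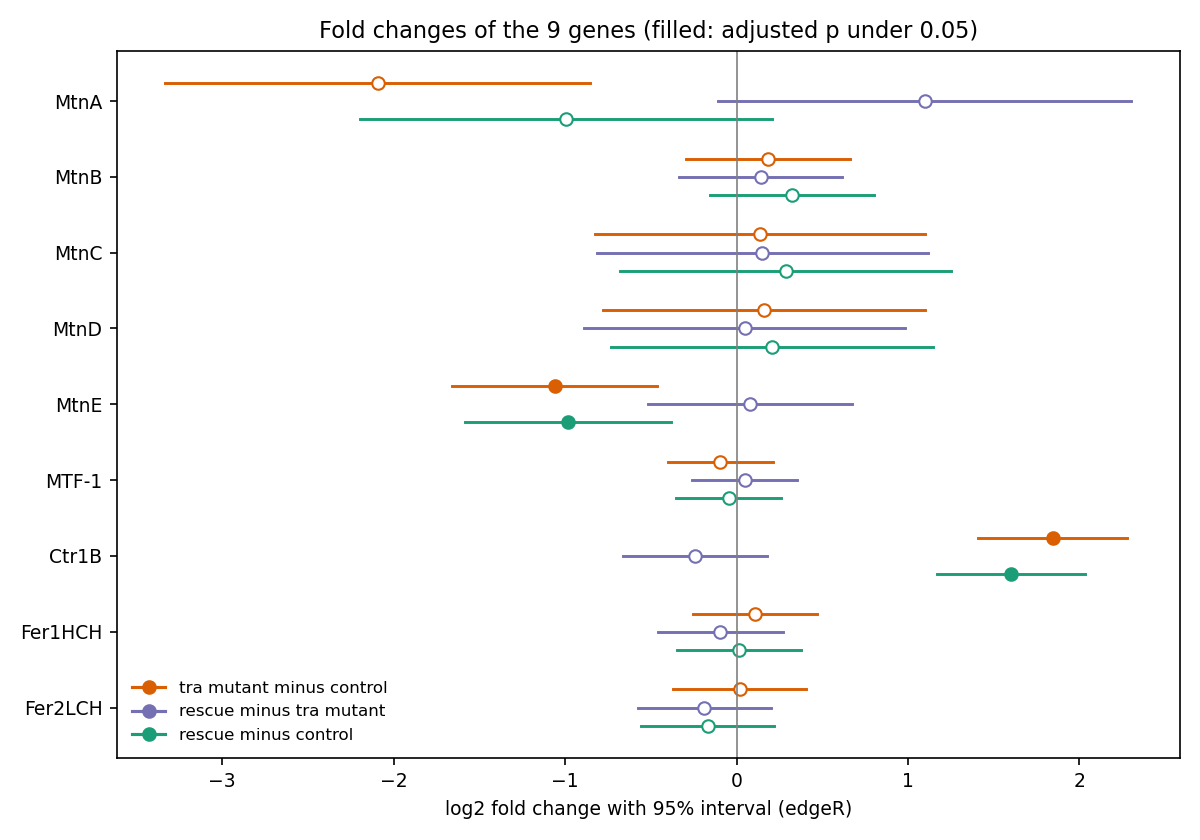
Log2 fold change of each of the 9 genes (horizontal axis, edgeR) with its 95% interval, for mutant minus control, rescue minus mutant and rescue minus control; filled points have an adjusted p under 0.05. Ctr1B (1.84 and 1.60) and MtnE (-1.06 and -0.98) are filled in both comparisons with control, and no point is filled for rescue minus mutant.

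The ferritin genes were the most abundant of the 9, and neither passed in any comparison. Fer1HCH (FBgn0015222), the heavy chain with the iron-oxidising site, measured 2420, 2690 and 2750 CPM in rescue, 2670, 3000 and 2720 CPM in the mutant, and 2320, 2630 and 2840 CPM in control. Fer2LCH (FBgn0015221), the light chain, measured 1790, 2100 and 2080 CPM in rescue, 2120, 2370 and 2310 CPM in the mutant, and 1880, 2260 and 2580 CPM in control. Fer1HCH ranked between the 28th and the 43rd most counted gene in every library and Fer2LCH between the 32nd and the 58th, and together they took 0.429% to 0.582% of the gene counts. Mutant against control was 0.11 ± 0.16 for Fer1HCH (95% interval -0.26 to 0.47, edgeR adjusted p = 0.719) and 0.02 ± 0.17 for Fer2LCH (-0.37 to 0.41, edgeR adjusted p = 0.961). Rescue against control was 0.01 for Fer1HCH and -0.17 for Fer2LCH (edgeR adjusted p = 0.965 and 0.569). All 3 rescue libraries were below all 3 mutant libraries for Fer2LCH, and the log2 fold change of -0.19 ± 0.17 did not pass (edgeR adjusted p = 0.999).

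Per kilobase of exon, the chains were close to each other. Fer1HCH averaged 1103 ± 73.2 CPM per kilobase in rescue, 1177 ± 76.4 in the mutant and 1092 ± 111 in control, and Fer2LCH averaged 1207 ± 104 in rescue, 1374 ± 79.8 in the mutant and 1357 ± 213 in control. The ratio of Fer1HCH to Fer2LCH per exon base was 0.938, 0.892 and 0.916 in rescue, 0.874, 0.880 and 0.818 in the mutant, and 0.857, 0.807 and 0.765 in control. Every rescue library had a higher ratio than every mutant and every control library, while mutant and control overlapped. Within each same-numbered pair the mutant library had the higher ratio (3 of 3 pairs). On the log2 scale of the raw counts the ratio was higher by 0.0952 in rescue than in the mutant and by 0.178 in rescue than in control (exact two-sided permutation test, p = 0.1 for each, the smallest p that 3 against 3 libraries allow), and by 0.0825 in the mutant than in control (exact p = 0.2, and 0.25 in an exact sign-flip test over the 3 pairs, the smallest p it allows). The genes are neighbours on opposite strands of arm 3R and share 118 exon bases, 4.97% of those of Fer1HCH and 7.16% of those of Fer2LCH, so reads of this stretch are uncertain. Fer3HCH, the third ferritin subunit gene, had too few counts to be tested.

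Read as counts, 1 of the 9 genes rose and 1 fell in the mutant against control, where 3.66% of the 10088 tested genes rose and 3.01% fell. In rescue against control 1 rose and 1 fell as well, where 4.79% of all tested genes rose and 4.65% fell. These are the same genes, Ctr1B and MtnE, and both comparisons share the control libraries. In rescue against mutant edgeR called 0 of the 9, where it called 0.466% of all tested genes. DESeq2 called 0 as well, and 0 had an unadjusted edgeR p below 0.05. Libraries of the groups did not overlap for 3 of the 9 genes in mutant against control (MtnA, MtnE and Ctr1B; 25.6% of all tested genes), 2 in rescue against mutant (MtnA and Fer2LCH; 12.2%) and 2 in rescue against control (MtnE and Ctr1B; 31.4%). The median log2 fold change of the 9 genes was 0.11 in mutant against control, 0.05 in rescue against mutant and 0.01 in rescue against control, beside -0.03, -0.0026 and -0.03 over all tested genes. Counts this small say nothing of the 9 genes as a set, and the results concern the single genes.

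Among other genes of metal homeostasis, the zinc importer gene Zip42C.2 was lower in the mutant and in rescue than in control. Of 39 tested genes on lists of copper, zinc and iron genes, 0 rose, 2 fell and 37 did not pass in the mutant against control with edgeR. Before adjustment 6 were higher and 4 lower at p below 0.05, beside 1131 higher and 1292 lower of all 10088 tested genes, and DESeq2 called 3 in each direction. Beside the 3.66% and 3.01% of all tested genes that rose and fell, these counts do not set the lists apart. In rescue against control 1 rose, 2 fell and 36 did not pass, where 4.79% of all tested genes rose and 4.65% fell (6 higher and 5 lower before adjustment, 3 and 3 with DESeq2), and in rescue against mutant 0 passed with edgeR. There 1 was higher and 0 lower before adjustment, and DESeq2 called 1 higher. The median log2 fold change of the 39 was 0.05, 0.10 and 0.02 in mutant against control, rescue against control and rescue against mutant, beside -0.03, -0.03 and -0.0026 over all tested genes.

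**Figure D4:**
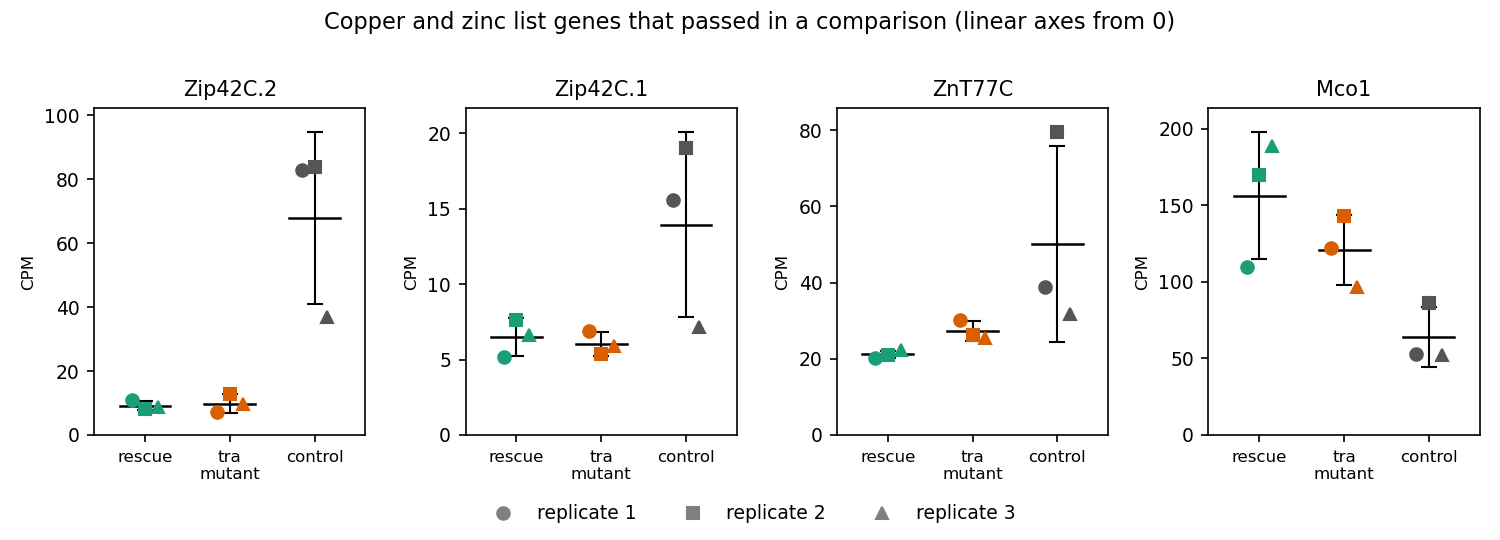
CPM (linear vertical axes from 0) of the copper and zinc list genes that passed in a comparison, in rescue, tra mutant and control libraries; points are libraries with a marker per replicate, lines are means and bars are SD (n = 3). Zip42C.2 lies at 7.03 to 12.7 CPM in all rescue and mutant libraries and at 36.8 to 83.8 CPM in control, while Mco1 is higher in rescue than in control.

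The genes that fell in the mutant were Zip42C.1 and Zip42C.2, neighbours that encode zinc importers of the gut. Zip42C.2 (FBgn0033097) measured 10.8, 8.09 and 8.70 CPM in rescue, 7.03, 12.7 and 9.74 CPM in the mutant, and 82.7, 83.8 and 36.8 CPM in control. All rescue and mutant libraries were below all control libraries, and the mutant mean was 0.145 of the control mean (-2.79 ± 0.33, edgeR adjusted p = 0.00144). The rescue mean was 0.136 of it (-2.88 ± 0.33, edgeR adjusted p = 0.0011). Zip42C.2 passed under all 18 alternatives in both comparisons. Zip42C.1 (FBgn0033096) measured 5.14, 7.65 and 6.63 CPM in rescue, 6.88, 5.35 and 5.87 CPM in the mutant, and 15.6, 19.0 and 7.16 CPM in control. Its call in the mutant (-1.21 ± 0.31, edgeR adjusted p = 0.0498) was lost under 12 of 18 alternatives, with edgeR adjusted p = 0.0634 and 0.111 with the replicate block (9 and 6 libraries), 0.0857 with the 6 libraries compared, 0.0517 with the filter of 1 CPM, and 0.0641 to 0.146 without any 1 of the mutant libraries, without any 1 of the rescue libraries or without control replicate 1 or 2. Rescue against control missed the threshold (-1.11 ± 0.31, edgeR adjusted p = 0.0544). Of the other listed genes of the ZIP family, named after their values were seen, none passed in the mutant. Zip48C (0.12), Zip88E (0.14) and Zip102B (0.05) had positive log2 fold changes there. Zip99C (-0.67, edgeR adjusted p = 0.177), Zip71B (-0.32), Zip89B (-0.18), foi (-0.09) and Catsup (-0.02) had negative ones. For Zip99C all mutant libraries (84.9, 94 and 102 CPM) lay below all control libraries (108, 103 and 234 CPM). That separation was narrow, and control replicate 3 was the highest of the 9. The zinc importer gene Zip42C.2 thus lay lower, and the copper importer gene Ctr1B higher, in every rescue and mutant library than in every control library.

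In rescue, a zinc transporter gene of the exporter family also fell and a multicopper oxidase gene rose. ZnT77C (FBgn0037000) measured 20.3, 20.9 and 22.2 CPM in rescue, 30.2, 26.3 and 25.4 CPM in the mutant, and 38.9, 79.4 and 31.7 CPM in control. The log2 fold change was -1.24 ± 0.29 in rescue (edgeR adjusted p = 0.0274) and -0.87 ± 0.28 in the mutant (edgeR adjusted p = 0.1), each against control. Its rescue call was lost without mutant replicate 3 or any 1 of the rescue libraries and in both fits on the 6 libraries compared (edgeR adjusted p up to 0.0976), and control replicate 2 was the highest of the 9 (-0.74 without it). Mco1 (FBgn0032116), a multicopper oxidase linked to iron handling, measured 110, 170 and 189 CPM in rescue, 122, 143 and 96.8 CPM in the mutant, and 52.8, 86.5 and 52.3 CPM in control. Against control it measured 1.29 ± 0.26 in rescue (edgeR adjusted p = 0.0172, and 0.0578 and 0.0653 without rescue replicates 2 and 3) and 0.92 ± 0.26 in the mutant (edgeR adjusted p = 0.0657). Of the 12 tested iron genes edgeR called 0 in every comparison. Before adjustment 3 were higher and 0 lower at p below 0.05 in each comparison with control, and 1 was higher in rescue against mutant. DESeq2 called 2 higher in rescue against control and 1 higher in each of the other comparisons. Of all 10088 tested genes, 1131 were higher and 1292 lower before adjustment in the mutant, and 1270 and 1484 in rescue, each against control. DESeq2 called 728 higher in the mutant and 869 in rescue there. In rescue against mutant 293 were higher before adjustment, and DESeq2 called 63 higher. Counts over 12 genes are too small to set the iron list apart.

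Of 12 tested genes of the oxidative stress response, 1 rose in rescue, Prx6b (FBgn0033520), a peroxiredoxin gene also known as Prx2540-1. It had 640, 487 and 577 counts in rescue, 152, 101 and 97 in the mutant and 47, 99 and 129 in control. Rescue against mutant was 2.35 ± 0.33 (edgeR adjusted p = 0.0141, and up to 0.109 without mutant replicate 2 or 3 or any 1 of the rescue libraries), and rescue against control 2.74 ± 0.33 (edgeR adjusted p = 0.00146). Reads of this gene are uncertain, since it lies beside near-identical copies. In mutant against control edgeR called 0 of the 12. Before adjustment 1 was higher and 1 lower at p below 0.05, and DESeq2 called 1 lower. In rescue against control 3 were higher and 1 lower before adjustment, beside 1270 and 1484 of all 10088 tested genes. DESeq2 called 1 higher there. Of all tested genes, edgeR called 0.466% in rescue against mutant, and 4.79% higher and 4.65% lower in rescue against control. In mutant against control it called 3.66% higher and 3.01% lower. A single call among 12 genes says nothing of the list as a set.

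Markers of other cells moved between the groups in part. Of all 10088 tested genes, edgeR called 3.66% higher and 3.01% lower in the mutant, and 4.79% and 4.65% in rescue, each against control. Before adjustment 1131 were higher and 1292 lower in the mutant, and 1270 and 1484 in rescue. DESeq2 called 728 higher and 688 lower in the mutant, and 869 and 936 in rescue. The summed level of 7 copper cell region markers was 1270 to 1700 CPM in rescue, 1300 to 1700 CPM in the mutant and 1150 to 1410 CPM in control, with 1 of 7 (caup, higher) past the threshold in rescue against control and 0 in mutant against control (1 higher before adjustment, 0 with DESeq2). The largest part of this sum was Vha100-2, which averaged 634 CPM in rescue, 607 CPM in the mutant and 445 CPM in control (444.5 before rounding). The 7 visceral muscle markers matched to an identifier (wupA was not) summed to 1150 to 1700 CPM in rescue, 1110 to 1400 CPM in the mutant and 1710 to 2130 CPM in control. Of these 7, edgeR called 0, while 4 were lower before adjustment in each comparison with control, and DESeq2 called 3 lower in the mutant and 1 in rescue. The 9 fat body markers summed to 7.15 to 13.3 CPM in rescue, 5.79 to 7.75 CPM in the mutant and 15.7 to 97.8 CPM in control, with 4 of 8 tested lower in the mutant and 3 in rescue, and Fbp1 at under 10 counts in every library. In rescue against control, 2 were higher and 5 lower before adjustment, and DESeq2 called 2 higher and 4 lower. The higher ones were Lsp2 (2.82, edgeR adjusted p = 0.0782) and Fbp2 (1.51, edgeR adjusted p = 0.0805), both under 2 CPM in every library. In mutant against control Fbp2 (1.03, edgeR adjusted p = 0.231) and Lsp2 (0.63, edgeR adjusted p = 0.711) also had positive log2 fold changes. Every other tested fat body marker had a negative one there. The edgeR calls lower in the mutant were Yp1, Yp2, Yp3 and Lsp1gamma, and in rescue Yp1, Yp2 and Lsp1gamma. In control the yolk protein genes Yp1, Yp2 and Yp3 measured 5.23 to 44.9, 2.25 to 16.0 and 2.07 to 20.2 CPM, much of the control sum. The amount of fat body tissue and the level of these genes per cell cannot be told apart. The 8 Malpighian tubule markers summed to 186 to 221 CPM in rescue, 172 to 220 CPM in the mutant and 139 to 168 CPM in control, with 0 of 7 tested called by edgeR (1 higher before adjustment in each comparison with control, DESeq2 0 in the mutant and 1 in rescue), and their defining gene Uro was at 0 to 0.492 CPM. Enteroendocrine markers summed to 559 to 690 CPM in rescue, 533 to 571 CPM in the mutant and 427 to 525 CPM in control. Of 8 tested, 1 was higher (Tk) and 1 lower (Orcokinin) in the mutant, and 4 were higher in rescue (pros, Tk, AstA and Dh31). Of the haemocyte markers, at 185 to 261 CPM in rescue, 217 to 258 CPM in the mutant and 152 to 193 CPM in control, 1 of 7 tested was higher (crq) and 2 lower in the mutant, and crq alone passed in rescue. Before adjustment 5 were lower in the mutant, and DESeq2 called 4 lower there and 1 in rescue. The sum was mostly crq, at 175 to 242 CPM in rescue, 200 to 249 CPM in the mutant and 120 to 136 CPM in control, while the list's median log2 fold change was -2.10 in the mutant and -0.77 in rescue, each against control. Hml, the haemocyte-specific gene hemolectin, was at 3.07 to 17.3 CPM in rescue, 2.03 to 6.31 CPM in the mutant and 7.31 to 28.6 CPM in control. The progenitor list also held esg and Dl, which were not matched to an identifier by symbol, so the sum leaves out the driver gene esg. The 6 progenitor markers that were matched summed to 90.9 to 109 CPM in rescue, 82.8 to 116 CPM in the mutant and 85.2 to 124 CPM in control. EdgeR called 0 of these, with 1 lower before adjustment in the mutant, and 1 higher and 1 lower in rescue, where DESeq2 called the same numbers (0 in the mutant). The 5 ovary markers matched to an identifier (nos and vas were not) summed to 0.985 to 1.29 CPM in rescue, 1.01 to 1.52 CPM in the mutant and 1.30 to 1.86 CPM in control, and the 1 tested did not pass. The part of these shifts in the levels of Ctr1B, MtnE and Zip42C.2 was not tested.

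Over the 9 libraries, the genes with the pattern most like that of MtnA by Pearson correlation of log2 CPM were CG9815 (r = 0.95), an identifier with no symbol in the reference table (0.94) and CG12581 (0.927), all with group means under 3 CPM. For MtnB they were asun, ix and croc (r = 0.959, 0.938 and 0.937), and for Fer1HCH they were CG43103, CG2991 and egl (0.944, 0.935 and 0.934). For Ctr1B, a choice made after its values were seen, they were acs, botv and CG31089 (0.989, 0.989 and 0.987), of which acs averaged 146 CPM in rescue, 168 CPM in the mutant and 40.5 CPM in control. None of the other metal-handling genes was among the 3 nearest of these 4. These correlations run across 3 groups of 3 libraries and so contain the group differences.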

How the data were processed

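Whole-number counts per gene were used as the authors deposited them, 1 table for each of 9 libraries (3 per group), not normalized. The tools listed are TopHat2 2.0.11 and HTSeq, and the build is dm3, per the submitters' processing notes. The HTSeq version, strand setting, overlap mode and annotation release are not given in the sources used here. Overlap of genes in the annotation can therefore move reads between them. Per the labels' protocols, libraries were made from 500 ng of RNA with a stranded mRNA kit and read over 100 bases from both ends. The 5 lines that name no gene were left out: 14.6% to 22.9% of alignments were not unique, 1.30% to 1.83% lay outside genes and 0.822% to 1.09% matched more than 1 gene. Of 15682 identifiers, 15002 had a symbol in the reference table. Replicates of a group were no copies of each other (chi-square over degrees of freedom 121.5 to 1002 for each pair).

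Testing used edgeR 4.0.16 (R 4.3.3) after filterByExpr (10 counts per gene, 15 in total) and TMM scaling. All 9 libraries entered 1 quasi-likelihood fit of group means with no block. The threshold was an adjusted p of 0.05. SE values were derived from the F statistic, and 95% intervals from the test's degrees of freedom. The fit was tested on simulated data with 200 changed genes. Alternatives were RLE and upper-quartile scaling, library totals, DESeq2 1.42.0, the replicate block, no filter, at least 1 CPM in 3 libraries or more, a fit of just the 6 libraries compared, and dropping each library in turn. The block with the 6 libraries compared and the paired test of the ferritin ratio were added after seeing the data. Same-numbered libraries correlated in their deviations from group means at r = 0.204, 0.176 and 0.170 for mutant and control. For rescue and mutant r was 0.0964, 0.0726 and -0.237, and for rescue and control 0.0237, 0.250 and 0.0304. Deviations from a group mean cancel out within the group, so these r values are not independent. They do not settle whether replicate numbers mark pairs. Only the block fits and the paired test of the ferritin ratio matched libraries by number, and the main fit did not.

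The 9 genes and all lists were chosen with earlier results of these data known. Named from the lists were the genes past the threshold, at most 4 per list and comparison, and for likeness the 3 genes nearest to MtnA, MtnB and Fer1HCH over log2 CPM (prior count 2). Single marker genes were named after their values were seen. Exon lengths and overlaps came from Ensembl's BDGP6, another build, so no coordinates are given. Figures were drawn in Python 3.11.15.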

Additional observations from a re-analysis of the deposited data

How the results depend on the processing

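Ctr1B and Zip42C.2 passed in both comparisons with control under every alternative tried, and no called fold change of the named genes reversed. The number of the 9 genes that fell in the mutant against control (1) was 2 with library totals, no filter or DESeq2, since MtnA then passed, and 0 with the replicate block, and leaving out single libraries gave 0 to 2. The number that fell in rescue against control (1) was 0 with the filter of 1 CPM, the block, the 6 libraries compared and the block on these 6, and leaving out single libraries gave 0 to 1. On the copper, zinc and iron lists, those that rose in the mutant against control (0) numbered 1 with library totals, the block and the block on 6 libraries, 3 with DESeq2 and 0 to 1 on leaving out libraries. Those that fell (2) numbered 1 with the filter of 1 CPM, the block, the 6 libraries and the block on 6, and 1 to 3 on leaving out libraries. In rescue against control, those that rose (1) numbered 3 with DESeq2 and 0 to 3 on leaving out libraries, and those that fell (2) numbered 3 with upper-quartile scaling, library totals, no filter or DESeq2, 1 with the 6 libraries and the block on 6, and 1 to 4 on leaving out libraries. In rescue against mutant 1 rose with DESeq2. Over all tested genes, the 673 called in mutant against control were 1416 with DESeq2, 416 with the 6 libraries, 379 with the block on 6 and 329 to 758 on leaving out libraries. The 952 in rescue against control were 1805, 494, 479 and 360 to 974, and the 47 in rescue against mutant were 125 with DESeq2 and 21 to 71 on leaving out libraries. The cause of these shifts was not tested. Scaling moved the median of all tested genes by under 0.1 on the log2 scale. Among the named genes that passed in the fit without a block, the fits with the replicate number as a block ended calls of MtnE, Zip42C.1 and ZnT77C and of no other. The mutant call of MtnE held with the block on the 6 libraries compared. Depth was no limit for the 9 genes, and 3 libraries per group leave 95% intervals of the log2 fold changes near 1 on either side for MtnC and MtnD.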
